A study of Mus musculus with 36 samples.

Results

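The desmosome genes described here are 10 mouse genes chosen by symbol: the desmogleins Dsg1a, Dsg1b, Dsg2, Dsg3 and Dsg4, the desmocollins Dsc1, Dsc2 and Dsc3, plakophilin 1 (Pkp1) and desmoplakin (Dsp). They are 10 of the 55414 genes counted in each library, and all 10 were among the 20657 genes that passed the filter on low counts. The study sequenced stranded RNA libraries of mouse skin: 33 were made from wounds, 3 from skin without a wound. Its title concerns the clearance of senescent cells with high p21 during wound healing. Wounds came from an arm labelled PD (day 2, 5 libraries, day 4, 6 libraries, day 12, 6 libraries) and an arm labelled P (5, 5 and 6 for the same days). The labels spell out neither letter and give no strain, allele, agent, age or driver of a transgene for any group, and the unwounded skin carries no arm. The questions the design poses are whether the genes differ between PD and P wounds on each day, and how wounds of each arm and day differ from unwounded skin and from one another. Nothing in the labels says that replicates of a group came from separate animals, so p-values measure the spread between these samples.

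Desmosomes are spot-like junctions that rivet neighbouring epithelial cells together. In each, the outer domains of desmogleins and desmocollins, both members of the cadherin family, bind those of the next cell. Inside the cell the cadherins hold plakoglobin and plakophilins, and desmoplakin ties these to keratin filaments, so the epidermis resists shear. In mouse and human epidermis Dsg3 and Dsc3 are strongest in the basal layers, Dsg1 and Dsc1 in the layers above, and Dsg4 belongs chiefly to the hair follicle. Wound keratinocytes are known to loosen these junctions as they migrate.

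The RefSeq promoter table (GRCm38.p6) held 1 of the 10 genes, Dsp, whose product is the link to keratin. Its 250 bases before the start of transcription are printed because Dsp is, with Dsc3, the pair of members whose levels ran most alike below. The same stretch of Jup, the gene of plakoglobin and the direct partner of desmoplakin inside the junction, stands beside it for comparison. Both are written 5′ to 3′ on the strand of the gene, and capitals mark the GC box GGGCGG on either strand.
Dsp, chr13:38151044-38151293 (plus strand): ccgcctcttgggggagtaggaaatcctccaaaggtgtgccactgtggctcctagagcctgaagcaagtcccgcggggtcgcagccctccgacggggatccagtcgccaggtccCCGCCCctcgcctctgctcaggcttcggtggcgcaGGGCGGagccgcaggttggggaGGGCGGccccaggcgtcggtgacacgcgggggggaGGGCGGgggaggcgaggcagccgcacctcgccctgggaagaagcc
Jup, chr11:100397791-100398040 (minus strand): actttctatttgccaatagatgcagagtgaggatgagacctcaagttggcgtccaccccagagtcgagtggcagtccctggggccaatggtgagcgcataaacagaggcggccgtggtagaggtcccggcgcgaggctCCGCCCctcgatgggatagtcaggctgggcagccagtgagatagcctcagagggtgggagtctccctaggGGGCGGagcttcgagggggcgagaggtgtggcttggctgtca
The Dsp stretch held 4 GC boxes at 72.4% G plus C, and the Jup stretch held 2 at 62.0%. Of 32851 windows of the same length, 32.7% held at least 1 GC box. Neither stretch held the Grainyhead-like motif AACCGGTT on either strand, which 0.116% of the windows held. Neither held the AP-1 motif TGANTCA (6.75% of windows), the p63 core CATG (53.9%) or the E-box CANNTG (66.2%). The KLF motif CACCC, in 52.0% of windows, had 2 matches in Jup and 0 in Dsp.

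The 8 cadherin genes lie close together on chromosome 18 of GRCm39. In the GENCODE annotation of that build, Dsc3 (20093987 to 20135408), Dsc2 (20163675 to 20192717) and Dsc1 (20217241 to 20247928) lie on the minus strand. Dsg1a (20443868 to 20476407), Dsg1b (20509781 to 20543253), Dsg4 (20569232 to 20604878), Dsg3 (20643331 to 20680516) and Dsg2 (20691074 to 20737581) follow on the plus strand. Pkp1 lies on chromosome 1 (135799133 to 135846945, minus strand) and Dsp on chromosome 13 (38335230 to 38382553, plus strand). Dsg1a and Dsg1b are near copies: 35% of the 50-base stretches of Dsg1a transcripts and 48.3% of those of Dsg1b also occur in another desmosomal cadherin, so the split of reads between the pair is uncertain. No such stretch was shared by Dsg2, Dsg3, Dsg4 or a desmocollin. Dsg1a, Dsg1b, Dsg2, Dsg3 and Dsp overlap an annotated gene on the opposite strand, and the strand setting of the counting is not given in the sources used here.

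Library totals ran from 11.807 to 58.376 M counts in genes (M, mega), with a median of 30.397 M. Levels are given as CPM, a gene's count per M counts of its library after TMM scaling, and a gene is called when edgeR's quasi-likelihood test gives a Benjamini-Hochberg adjusted p under 0.05 over all genes tested. The tissue held epidermal RNA in every library: the summed CPM of 8 interfollicular keratinocyte markers ran from 4281 to 49864. A single library, P day 4 replicate 3, stood apart. It had a summed 9356 CPM over 9 hair follicle markers, whereas the other P libraries of that day had 9.40 to 21.7 CPM. Log2 changes of the desmosome genes that rest on it are given with and without it. The P day 4 values of other genes, and of shares and ratios of cadherins, are given only with it. Over 6 skeletal muscle markers, day 4 wounds summed to 10182 to 56113 CPM in PD and 3894 to 37895 CPM in P, against 49879 to 80416 CPM in unwounded skin. Over 6 neutrophil markers they summed to 2473 to 13155 CPM in PD and 2321 to 8868 CPM in P, against 0.786 to 2.43 CPM in unwounded skin. In such bulk samples fewer cells of a type and less RNA per cell cannot be told apart, and the part of the cell makeup in any difference below was not tested.

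Per kilobase of exon, Pkp1 and Dsp had the highest levels in all 7 groups and Dsc3 came next in each. In unwounded skin Pkp1 averaged 178 ± 32.8 CPM per kb, Dsp 167 ± 18.2, Dsc3 90.2 ± 9.28 and Dsg1a 77.6 ± 9.14 (SD, n = 3). Pkp1 and Dsp overlapped in their ranges there, as did Dsc3 and Dsg1a. Dsg3 followed at 26 ± 4.72 CPM per kb, and Dsc1 at 6.77 ± 0.564, Dsg2 at 4.1 ± 0.414, Dsg1b at 3.13 ± 0.214 and Dsc2 at 1.43 ± 0.221 were far below. Dsg4 was last at 0.145 ± 0.0308 CPM per kb, with 0.439 to 0.629 CPM. Skin without a wound thus held its desmoglein message mostly as Dsg1a and its desmocollin message mostly as Dsc3.

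**Figure D1:**
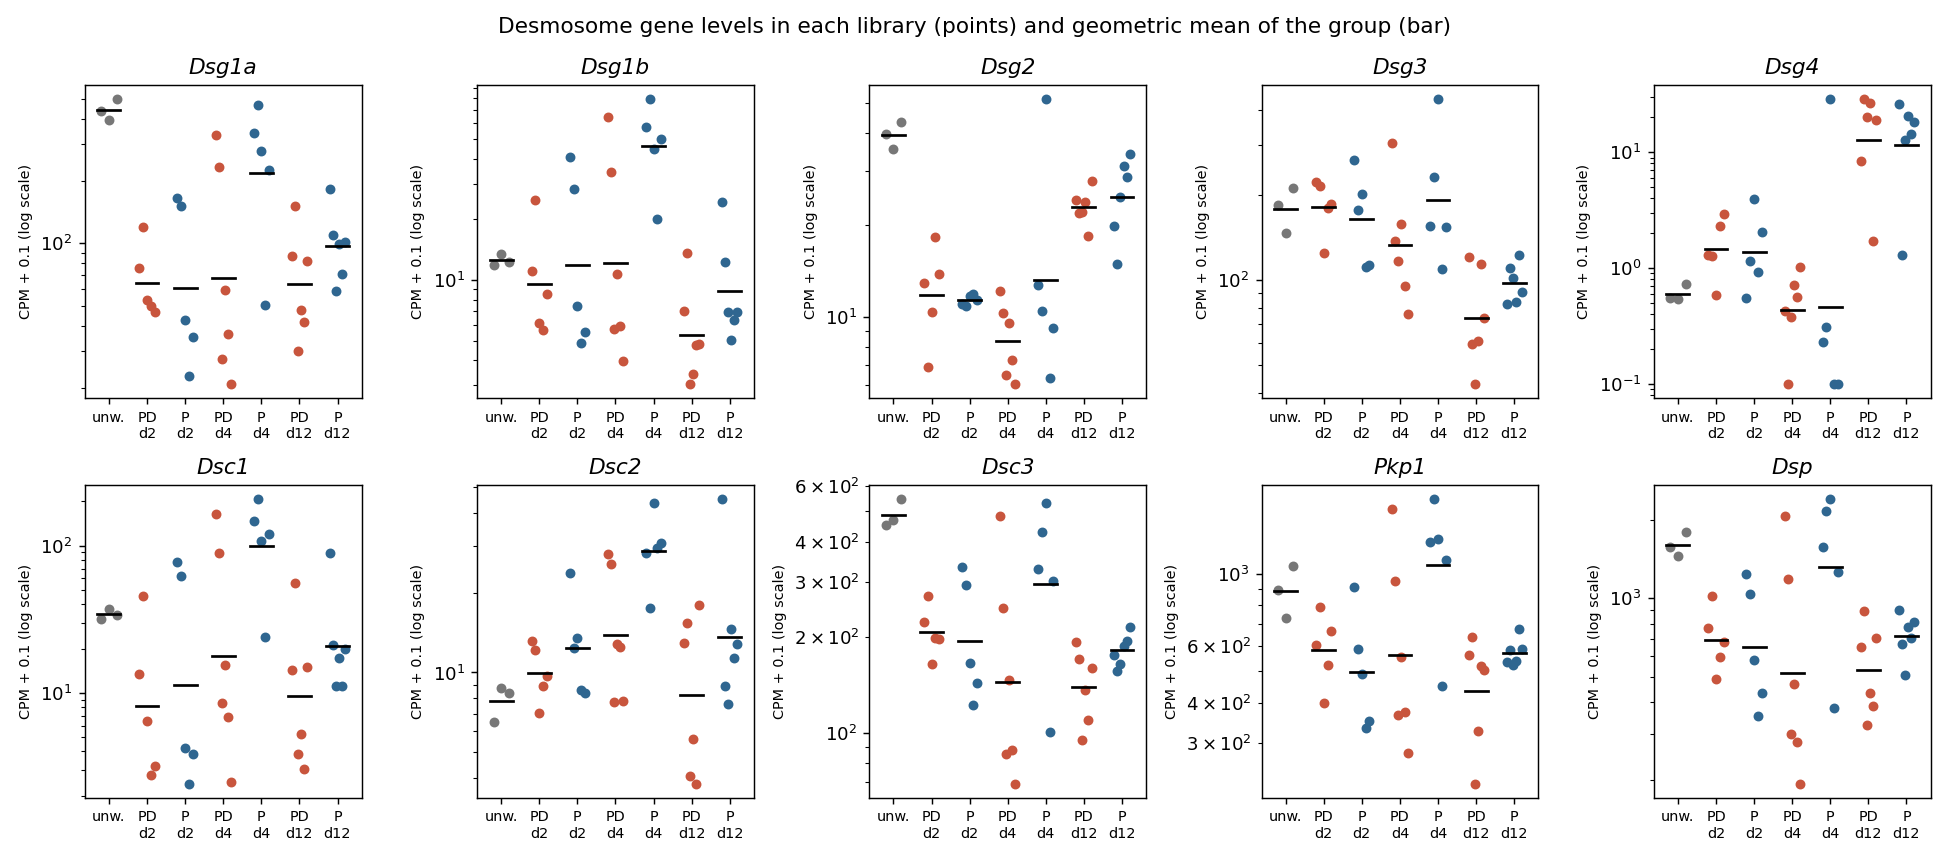
Level of each of the 10 desmosome genes in every library (points, CPM + 0.1 on a log axis) by group: unwounded skin (grey), PD wounds (red) and P wounds (blue) at days 2, 4 and 12 (d2, d4, d12). Bars are geometric means of CPM + 0.1; Dsg1a and Dsc3 points of day 2 all lie below those of unwounded skin, and Dsg4 is highest at day 12.

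Against unwounded skin, 2 to 5 of the 10 desmosome genes passed the test in each wound group, and over the 6 groups most of these calls were lower. At day 2, 3 of 10 were called in PD wounds and 3 of 10 in P wounds, where 39.4% and 41.3% of all genes tested were called (21% higher and 18.4% lower in PD, 22.3% and 19% in P). All 6 calls were lower. At day 4 the counts were 3 in PD and 2 in P, beside 47.1% and 43.3% of all genes (25.4% higher and 21.8% lower in PD, 23.6% and 19.7% in P). The PD calls were lower, and P had 1 in each direction. At day 12 they were 5 in PD and 3 in P, beside 44.9% and 43.7% (24.2% higher and 20.7% lower in PD, 23.7% and 20% in P), with 1 higher in either arm. At PD day 12 the 5 of 10 lay near the 44.9% of all genes, and 4 to 6 were called with 1 library left out. In the other comparisons the share of members called lay below that of all genes. The median log2 change of the 10 was -0.88 in PD and -0.46 in P at day 2, -0.34 and 0.32 at day 4, and -1.06 and -0.64 at day 12. The median of all genes tested lay between 0.02 and 0.10 in these 6 comparisons, which share the 3 unwounded libraries. The P day 4 median of the members changed sign without P day 4 replicate 3. Below 0 were then Dsg1a (-0.70), Dsg2 (-2.03), Dsg3 (-0.16), Dsg4 (-2.33), Dsc3 (-0.76) and Dsp (-0.26). Above 0 were Dsg1b (2.05), Dsc1 (1.87), Dsc2 (1.75) and Pkp1 (0.34). Cell type markers moved as well. The 8 interfollicular keratinocyte markers had a median sum of 15664 CPM in PD and 13431 CPM in P at day 2, and 10606 CPM in PD and 11567 CPM in P at day 12, against 18487 CPM in unwounded skin. At day 4 their median sum was above unwounded skin, at 20576 CPM in PD and 32332 CPM in P. The range of each of the 6 wound groups overlapped that of unwounded skin, 13430 to 21994 CPM. The 6 fibroblast markers summed to 12012 to 46386 CPM in PD and 10704 to 86044 CPM in P at day 12, against 942 to 2059 CPM in unwounded skin. Their part in these changes was not tested.

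**Figure D2:**
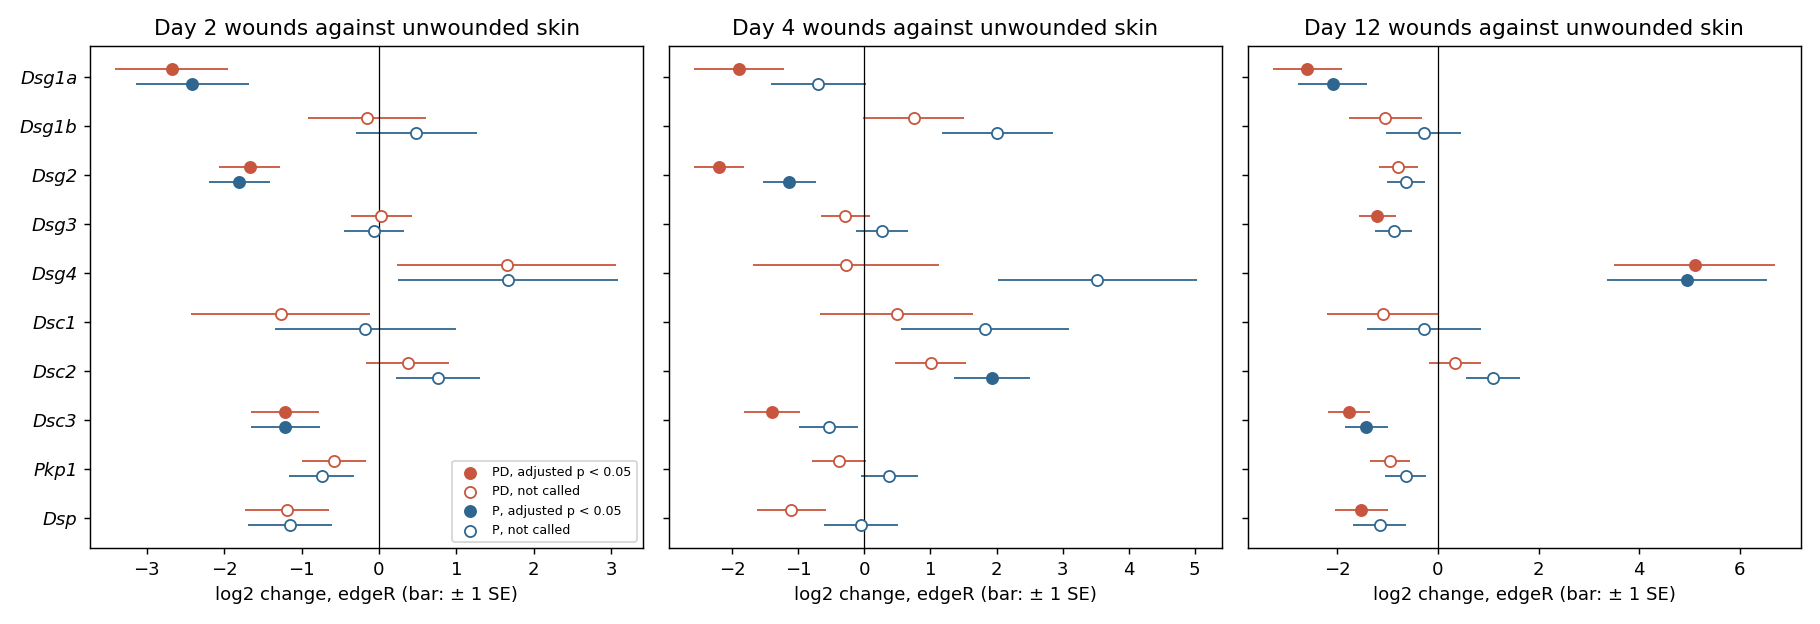
Log2 change of each desmosome gene in PD wounds (red, upper of each pair) and P wounds (blue) against unwounded skin at days 2, 4 and 12, by edgeR, with bars of ± 1 SE. Filled points have an adjusted p under 0.05; Dsg1a is filled in 5 of the 6 comparisons and Dsg4 at day 12 only.

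Dsg1a, the main desmoglein of the outer epidermis, was lower in 5 of the 6 wound groups. Unwounded skin held 434, 393 and 496 CPM. At day 2, PD wounds held 75.7, 120.0, 53, 49.6 and 46.3 CPM and P wounds 164, 151, 42.4, 22.7 and 34.9 CPM. Every day 2 wound lay below every unwounded sample. The log2 change from unwounded skin was -2.68 ± 0.73 (SE, edgeR adjusted p = 0.00405) in PD and -2.41 ± 0.73 (SE, edgeR adjusted p = 0.00817) in P. At day 4, PD wounds ran 20.8 to 334 (median 47.9) CPM, and the 5 P wounds held 342, 467, 278, 50.4 and 224 CPM, of which 1, replicate 2, reached the unwounded range. The change was -1.89 ± 0.68 (SE, edgeR adjusted p = 0.0234) in PD and -0.69 ± 0.72 (SE, edgeR adjusted p = 0.454) in P, so P day 4 wounds were not called. At day 12 all wounds were again below all unwounded samples, with 30.1 to 152 (median 64.5) CPM in PD and 58.6 to 182 (median 100.03) CPM in P. The change was -2.59 ± 0.69 (SE, edgeR adjusted p = 0.00311) in PD and -2.09 ± 0.68 (SE, edgeR adjusted p = 0.0141) in P. The PD day 4 call was lost without PD day 4 replicate 3 or 6, or unwounded replicate 2 or 3 (edgeR adjusted p = 0.0517 to 0.0618), and the other 4 calls held with any library left out.

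Dsg1b, its near copy, did not pass the test against unwounded skin in any group. Unwounded skin held 11.8, 13.4 and 12.1 CPM. PD wounds held 11, 24.9, 6.02, 5.53 and 8.4 CPM at day 2, 3.85 to 64.4 (median 8.23) at day 4 and 2.96 to 13.5 (median 4.68) at day 12. P wounds held 40.8, 28.3, 7.3, 4.79 and 5.43 CPM at day 2, 57.5, 78.7, 44.5, 20.02 and 50.2 at day 4 and 4.92 to 24.3 (median 6.83) at day 12. All 5 P day 4 wounds were above the unwounded samples, with a log2 change of 2.01 ± 0.83 (SE, edgeR adjusted p = 0.0503), which passed without P day 4 replicate 4 (edgeR adjusted p = 0.0351). In counts, Dsg1a exceeded Dsg1b by 29.4 to 40.9 times in unwounded skin. The ratio was 4.81 to 8.96 in PD and 4.03 to 6.42 in P wounds at day 2, 4.87 to 6.82 in PD and 2.52 to 6.25 in P at day 4, and 8.94 to 17.3 in PD and 7.47 to 20.05 in P at day 12. No wound library reached the unwounded range. This ratio was looked at after its values were seen, has no test, and depends on how shared reads were split.

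Dsg2, the desmoglein of simple epithelia and of many proliferating cells, was lower at days 2 and 4. It stood at 39.5, 35.3 and 43.2 CPM in unwounded skin. At day 2 it was 12.8, 6.77, 10.3, 18.2 and 13.8 CPM in PD and 10.9, 10.7, 11.6, 11.8 and 11.3 CPM in P wounds, with no overlap with unwounded skin. The log2 change was -1.67 ± 0.4 (SE, edgeR adjusted p = 0.00117) in PD and -1.8 ± 0.4 (SE, edgeR adjusted p = 0.000477) in P. At day 4 it ran 5.96 to 12 (median 8.33) CPM in PD, and was 12.7, 10.4, 51.3, 6.23 and 9.11 CPM in P, where replicate 3 alone was above all unwounded samples. The change was -2.2 ± 0.38 (SE, edgeR adjusted p = 2.08e-05) in PD and -1.13 ± 0.4 (SE, edgeR adjusted p = 0.021) in P, and -2.03 ± 0.27 (SE, edgeR adjusted p = 7.38e-07) in P without replicate 3, whose hair follicle markers stood apart. At day 12 it ran 18.3 to 27.7 (median 22.8) CPM in PD and 14.8 to 33.8 (median 26.6) CPM in P, all below unwounded skin yet not called, with changes of -0.78 ± 0.38 (SE, edgeR adjusted p = 0.0932) in PD and -0.63 ± 0.38 (SE, edgeR adjusted p = 0.183) in P. The P day 4 call was lost without P day 4 replicate 1, 2, 4 or 5, or unwounded replicate 3 (edgeR adjusted p = 0.0502 to 0.0682).

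Dsg3, the basal desmoglein and the target of antibodies in pemphigus vulgaris, was near its unwounded level early and lower late. It stood at 185, 146 and 212 CPM in unwounded skin. At day 2 it was 221, 214, 125, 180.1 and 185 CPM in PD and 266, 177, 201, 111 and 113 CPM in P wounds, and at day 4 75.6 to 306 (median 127) CPM in PD and 155, 231, 437, 109 and 154 CPM in P. The groups overlapped unwounded skin on both days. At day 12 it ran 42.9 to 121 (median 67.2) CPM in PD and 82.3 to 123 (median 96.2) CPM in P, below unwounded skin in every library. The day 12 change was -1.2 ± 0.36 (SE, edgeR adjusted p = 0.00839) in PD, a call that held with any library left out, and -0.88 ± 0.37 (SE, edgeR adjusted p = 0.0515) in P, which passed only without P day 12 replicate 5 (edgeR adjusted p = 0.0474).

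Dsg4, the desmoglein of the hair shaft, was the member whose level varied most over the 36 libraries. It was 0.449, 0.439 and 0.629 CPM in unwounded skin. At day 2 it was 1.2, 1.17, 0.488, 2.2 and 2.82 CPM in PD wounds and 0.454, 1.04, 3.83, 0.833 and 1.95 CPM in P wounds. At day 4 it ran 0 to 0.918 (median 0.393) CPM in PD and was 0.129, 0.21, 28.5, 0 and 0 CPM in P. Of these, PD replicate 2 and P replicates 4 and 5 had 0 counts, which allow up to 0.104, 0.173 and 0.0863 CPM at 3 counts each (counting error only). P day 4 replicate 3 alone was high on that day, the library with hair follicle markers at 9356 CPM. The day 4 change in P was 3.53 ± 1.5 (SE, edgeR adjusted p = 0.0572), and -2.33 ± 1.11 (SE, edgeR adjusted p = 0.0912) without that library, so its direction rested on 1 sample. It passed without P day 4 replicate 1, 2, 4 or 5 (edgeR adjusted p = 0.0309 to 0.0391), all fits that keep replicate 3. In PD the change was -0.28 ± 1.41 (SE, edgeR adjusted p = 0.887).

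At day 12 Dsg4 ran 1.63 to 28.6 (median 19.3) CPM in PD and 1.19 to 26.1 (median 16.2) CPM in P, all above unwounded skin. The log2 change was 5.11 ± 1.6 (SE, edgeR adjusted p = 0.0105) in PD and 4.95 ± 1.59 (SE, edgeR adjusted p = 0.0123) in P, while leaving out unwounded replicate 2 ended the P call (edgeR adjusted p = 0.0517). With 2 surrogate variables in the fit, neither day 12 change was called (edgeR adjusted p = 0.283 in PD and 0.358 in P). The second of these variables itself separated the groups compared. It was 0.183 to 0.289 in unwounded skin, -0.282 to 0.062 in PD day 12 and -0.311 to 0.049 in P day 12 wounds. That fit can thus take up part of the group difference and is no independent check of it. The 9 hair follicle markers summed to 751 to 12963 CPM in PD and 647 to 13174 CPM in P at day 12, against 10.4 to 15.7 CPM in unwounded skin. The libraries lowest in these markers at day 12, PD replicate 5 (751 CPM) and P replicate 2 (647 CPM), were also lowest in Dsg4, at 1.63 and 1.19 CPM. The part of hair in the Dsg4 change was not tested.

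Of the desmocollins, Dsc3, the basal one, was lower in 5 of the 6 wound groups. It stood at 454, 468 and 547 CPM in unwounded skin. At day 2 it was 224, 270.4, 164, 199 and 198 CPM in PD and 333, 293, 166, 123 and 144 CPM in P wounds, below all unwounded samples. The log2 change was -1.21 ± 0.44 (SE, edgeR adjusted p = 0.0293) in PD and -1.21 ± 0.44 (SE, edgeR adjusted p = 0.0285) in P. At day 4 it ran 69 to 482 (median 117) CPM in PD, with replicate 1 inside the unwounded range, and was 328, 429, 530.0, 100.13 and 301 CPM in P, with replicate 3 inside it. The change was -1.39 ± 0.42 (SE, edgeR adjusted p = 0.00768) in PD, and -0.54 ± 0.45 (SE, edgeR adjusted p = 0.342) in P was not called. At day 12 it ran 94.4 to 193 (median 148) CPM in PD and 157 to 216 (median 182) CPM in P, all below unwounded skin. The change was -1.77 ± 0.42 (SE, edgeR adjusted p = 0.00124) in PD and -1.42 ± 0.42 (SE, edgeR adjusted p = 0.00744) in P. The day 2 calls were the least firm: the PD call was lost without PD day 2 replicate 3 or 5, or unwounded replicate 1, 2 or 3 (edgeR adjusted p = 0.0503 to 0.0853), and the P call without P day 2 replicate 3, 4 or 5, or unwounded replicate 1, 2 or 3 (edgeR adjusted p = 0.0508 to 0.0832). The day 4 and day 12 calls held with any library left out.

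Dsc1, the desmocollin of the outer layers, passed in no wound group and varied widely from library to library. It was 31.6, 37.2 and 33.7 CPM in unwounded skin. At day 2 it was 13.3, 45.7, 6.29, 2.66 and 3.08 CPM in PD and 77.9, 62.6, 4.11, 2.32 and 3.75 CPM in P wounds, so PD replicate 2 and P replicates 1 and 2 were above all unwounded samples while the others lay below. At day 4 it ran 2.39 to 164 (median 11.9) CPM in PD and was 148, 208, 107, 23.9 and 120.0 CPM in P, and at day 12 2.95 to 55.3 (median 9.69) CPM in PD and 11.1 to 89.5 (median 18.5) CPM in P. Its log2 changes against unwounded skin ran from -1.27 in PD day 2 to 1.83 in P day 4, with an SE above 1 in all 6 comparisons. The day 2 libraries with the most Dsc1 were also among those with the most wound keratinocyte markers: PD day 2 replicate 2 had 11284 CPM and P day 2 replicates 1 and 2 had 13781 and 6237 CPM, whereas P day 2 replicates 4 and 5 had 1536 and 1397 CPM. PD day 2 replicate 1 did not follow this, with 8233 CPM of the markers and 13.3 CPM of Dsc1. The part of these cells in the Dsc1 values was not tested.

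Dsc2, the desmocollin found beyond stratified epithelia as well, was low in skin and higher in P day 4 wounds. It was 6.43, 8.68 and 8.28 CPM in unwounded skin. At day 2 it was 13.1, 12.1, 6.91, 8.82 and 9.57 CPM in PD and 23.7, 12.3, 13.4, 8.51 and 8.28 CPM in P wounds. At day 4 it ran 7.67 to 27.8 (median 12.5) CPM in PD and was 28.1, 17.4, 43.5, 29.4 and 30.5 CPM in P, where every library was above unwounded skin. The change was 1.0 ± 0.54 (SE, edgeR adjusted p = 0.124) in PD and 1.93 ± 0.57 (SE, edgeR adjusted p = 0.00735) in P, and 1.75 ± 0.58 (SE, edgeR adjusted p = 0.0166) in P without replicate 3. At day 12 it ran 3.72 to 17.9 (median 9.17) CPM in PD and 7.48 to 44.9 (median 12) CPM in P, with changes of 0.34 ± 0.52 (SE, edgeR adjusted p = 0.615) and 1.09 ± 0.54 (SE, edgeR adjusted p = 0.0994). The P day 4 call held with any library left out.

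On the plaque side, Pkp1, which binds desmoglein tails and desmoplakin, did not pass in any wound group. It was 891, 730.4 and 1059.8 CPM in unwounded skin. PD wounds held 604, 793, 399.9, 521 and 669 CPM at day 2, 279.9 to 1587 (median 464) at day 4 and 225 to 638 (median 512) at day 12. P wounds held 912, 586, 489.5, 334 and 351 CPM at day 2, 1259.7, 1709, 1286, 449.7 and 1108 at day 4 and 522 to 677 (median 560.2) at day 12. All 12 day 12 wounds lay below the unwounded samples. The day 12 change was -0.95 ± 0.4 (SE, edgeR adjusted p = 0.0501) in PD and -0.64 ± 0.4 (SE, edgeR adjusted p = 0.195) in P. The PD change passed without PD day 12 replicate 1 or 2 (edgeR adjusted p = 0.0377 to 0.0478).

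Dsp was lower in PD day 12 wounds and not called elsewhere. It was 1583, 1463 and 1810.2 CPM in unwounded skin. PD wounds held 767, 1020.5, 489, 595 and 682 CPM at day 2, 193 to 2078 (median 384) at day 4 and 324 to 891 (median 543) at day 12. P wounds held 1245, 1043, 579.7, 352 and 432 CPM at day 2, 1582, 2174, 2418, 379 and 1267 at day 4 and 507 to 904 (median 737) at day 12. At days 2 and 12 no wound reached the unwounded level, and at day 4 PD replicate 1 and P replicates 2 and 3 exceeded it. The change was -1.19 ± 0.55 (SE, edgeR adjusted p = 0.0829) in PD and -1.15 ± 0.55 (SE, edgeR adjusted p = 0.0911) in P at day 2, -1.11 ± 0.52 (SE, edgeR adjusted p = 0.0808) in PD and -0.05 ± 0.56 (SE, edgeR adjusted p = 0.952) in P at day 4, and -1.52 ± 0.52 (SE, edgeR adjusted p = 0.0183) in PD and -1.15 ± 0.52 (SE, edgeR adjusted p = 0.0719) in P at day 12. Leaving out unwounded replicate 3 ended the PD day 12 call (edgeR adjusted p = 0.0557). The P day 2 change passed without P day 2 replicate 1 (edgeR adjusted p = 0.0483), and the PD day 4 change passed at -1.73 without PD day 4 replicate 1 (edgeR adjusted p = 0.00354).

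PD wounds were then set against P wounds on the same day. No member was called on any day, and edgeR called 0 genes in all at days 2, 4 and 12 (0% of those tested), with 793, 2369 and 1022 genes at an unadjusted p under 0.05. DESeq2 called 24, 182 and 0 genes on the 3 days, and no member. At day 2 the members' log2 differences ran from -1.09 (Dsc1) to 0.16 (Pkp1), with 7 of 10 lower in PD and a median of -0.03. At day 12 they ran from -0.81 (Dsc1) to 0.16 (Dsg4), with 9 lower in PD and a median of -0.35. The PD and P ranges overlapped for every member on each day. Averaged over the 3 days the differences ran from -1.22 to -0.26, with 0 called and 2 at an unadjusted p under 0.05 (DESeq2 and limma-voom called 0 members as well). Without P day 4 replicate 3 they ran from -1.09 (Dsc1) to 0.73 (Dsg4), so 9 of the 10 were lower in PD, with Dsg2 at -0.06 and 0 called.

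At day 4 all 10 members had a lower fitted level in PD than in P wounds, with a median log2 difference of -1.06, against -0.01 over all genes tested. The values that follow are fitted log2 differences, PD minus P. Dsp differed by -1.06 ± 0.46 (SE, edgeR adjusted p = 0.403), Pkp1 by -0.76 ± 0.35 (SE, edgeR adjusted p = 0.41) and Dsc3 by -0.86 ± 0.38 (SE, edgeR adjusted p = 0.403). Dsg1a differed by -1.2 ± 0.61 (SE, edgeR adjusted p = 0.442), Dsg1b by -1.27 ± 0.64 (SE, edgeR adjusted p = 0.438) and Dsg2 by -1.07 ± 0.34 (SE, edgeR adjusted p = 0.321). None passed after adjustment, whereas 6 had an unadjusted p under 0.05. Dsg4 differed by -3.81 ± 1.17 (SE, edgeR adjusted p = 0.303), Dsc1 by -1.34 ± 0.98 (SE, edgeR adjusted p = 0.551), Dsc2 by -0.93 ± 0.44 (SE, edgeR adjusted p = 0.421) and Dsg3 by -0.55 ± 0.32 (SE, edgeR adjusted p = 0.475).

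The day 4 libraries of either arm fell into high and low ones. Dsp, for instance, was 2078 and 1189.6 CPM in PD replicates 1 and 2 but 193 to 469 CPM in the other 4, and 1267 to 2418 CPM in 4 P wounds but 379 CPM in P replicate 4. Keratinocyte markers separated the same libraries, without overlap. The 8 interfollicular markers summed to 28730 to 49864 CPM in the libraries high in Dsp and 12859.6 to 23748 CPM in the low ones. They were 37419.7 and 28774 CPM in PD replicates 1 and 2, and 17681 CPM in P replicate 4. Among the high libraries the order of the markers differed from that of Dsp. P replicate 3, the highest in Dsp at 2418 CPM, had 28730 CPM of the markers. PD replicate 4, among the low ones in Dsp, had 23748 CPM, above P replicate 4. The full range of these 8 markers was 12859.6 to 37419.7 CPM in PD and 17681 to 49864 CPM in P. The 6 wound keratinocyte markers summed to 1429.7 to 26642 CPM in PD and 7417 to 21432 CPM in P. They too separated the libraries, with 12877 to 26642 CPM in those high in Dsp and 1429.7 to 7417 CPM in the low ones. Their part in the PD difference was not tested.

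Whether the day 4 difference was called depended on the tool, and its size in 3 members on 1 library. The limma-voom fit with sample weights called 7 members lower in PD (Dsg1a, Dsg1b, Dsc1, Dsc2, Dsc3, Pkp1 and Dsp, adjusted p = 0.00797 to 0.0474), together with 2056 genes in all. With 2 surrogate variables the differences shrank to between -0.15 and -1.85, at an adjusted p of 0.999. The first of these variables was 0.158 to 0.354 in PD replicates 3 to 6 and 0.205 in P replicate 4, and below 0 in the other day 4 libraries. That fit can thus take up part of the difference and is no independent check of it. Without P replicate 3, 7 of the 10 differences stayed between -0.64 (Dsc3) and -1.38 (Dsc1), each with an edgeR adjusted p of 0.815. The other 3 shrank or changed sign. Dsg4 differed by 2.05 ± 1.02 (SE, edgeR adjusted p = 0.815), higher in PD and not called, Dsg2 by -0.17 ± 0.23 (SE, edgeR adjusted p = 0.855) and Dsg3 by -0.13 ± 0.31 (SE, edgeR adjusted p = 0.919). Whether the PD and P difference itself changed between days was also tested, and 0 members passed for day 4 minus day 2 or for day 12 minus day 4 (0 of all genes, with 1472 and 623 at an unadjusted p under 0.05). DESeq2 called no member in either, and limma-voom called 6 for day 4 minus day 2.

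**Figure D3:**
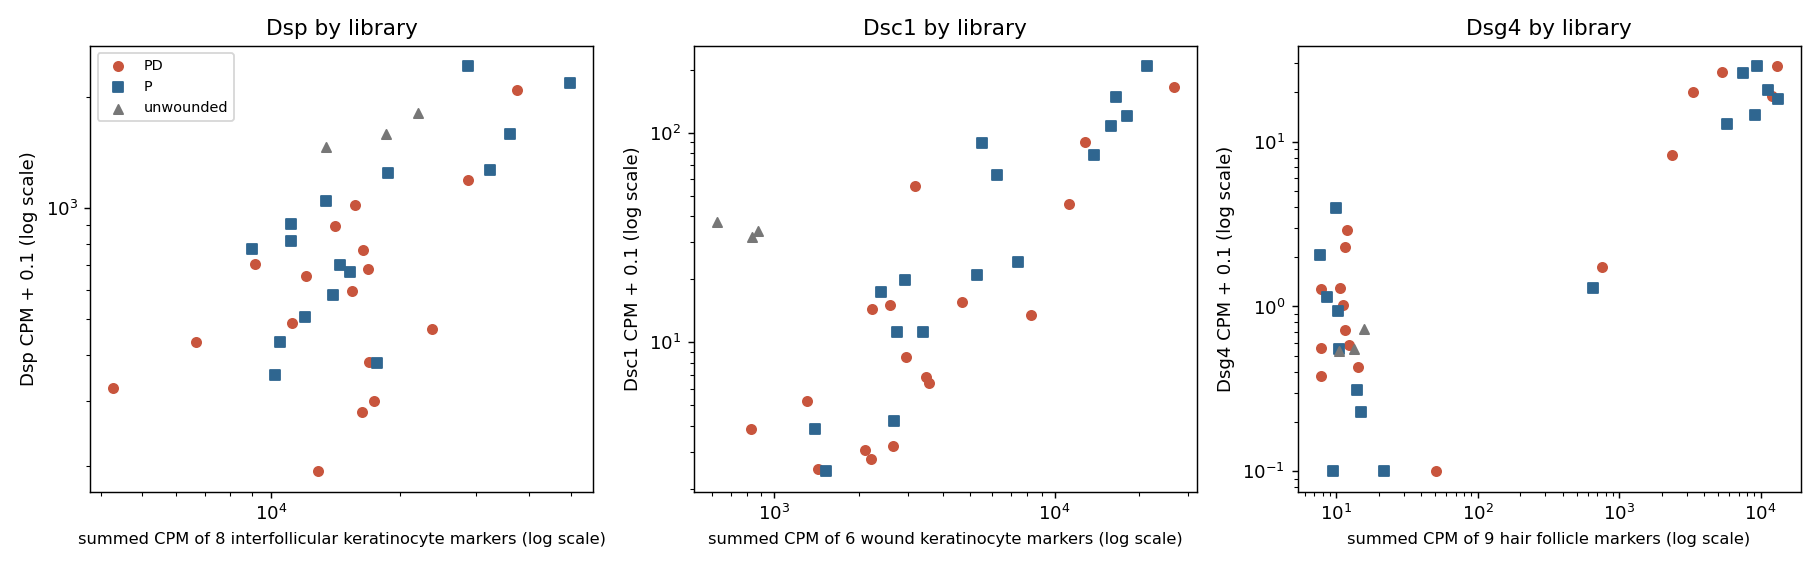
Dsp, Dsc1 and Dsg4 (CPM + 0.1, log axis) in each library against the summed CPM of 8 interfollicular keratinocyte, 6 wound keratinocyte and 9 hair follicle markers (log axis), for PD wounds (red circles), P wounds (blue squares) and unwounded skin (grey triangles). The libraries with hair follicle markers of 2359 CPM or more are those with Dsg4 of 8.25 CPM or more.

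Within each arm, days were compared with one another. At day 4 against day 2 no member passed in PD wounds (4.26% of all genes called, 2.67% higher and 1.59% lower) or in P wounds (8.45%, 5.76% higher and 2.7% lower), where 0 and 5 of the 10 had an unadjusted p under 0.05. DESeq2 called 0 members in PD and 2 in P. The median log2 change of the members was 0.14 in PD and 1.14 in P, against 0.02 and -0.01 over all genes. In P all 10 fitted changes were above 0, led by Dsc1 at 2.01 ± 1.05 (SE, edgeR adjusted p = 0.261), Dsg4 at 1.86 ± 1.11 (SE, edgeR adjusted p = 0.334) and Dsg1a at 1.72 ± 0.65 (SE, edgeR adjusted p = 0.102). Pkp1, at 1.12 ± 0.37 (SE, edgeR adjusted p = 0.0539), passed without P day 4 replicate 4, or P day 2 replicate 1 (edgeR adjusted p = 0.0155 to 0.0207), and Dsg1a passed without P day 4 replicate 4 (edgeR adjusted p = 0.0438). The P change of Dsg4 turned round without P day 4 replicate 3, to -4.0 ± 0.99 (SE, edgeR adjusted p = 0.0142). Without that library Dsg2 and Dsg3 were also below 0, at -0.23 ± 0.24 (SE, edgeR adjusted p = 0.66) and -0.1 ± 0.32 (SE, edgeR adjusted p = 0.923), and the other 7 remained above 0.

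At day 12 against day 4, 4 members were called in PD wounds (31.3% of all genes, 15.7% higher and 15.6% lower) and 3 in P wounds (23.8%, 11.2% higher and 12.6% lower). Dsg1b was lower at day 12 in both arms, with a log2 change of -1.79 ± 0.63 (SE, edgeR adjusted p = 0.0285) in PD and -2.3 ± 0.65 (SE, edgeR adjusted p = 0.00992) in P. Dsg3 was also lower in both, with -0.91 ± 0.31 (SE, edgeR adjusted p = 0.0232) in PD and -1.14 ± 0.32 (SE, edgeR adjusted p = 0.00963) in P. Pkp1 was lower in P, at -1.02 ± 0.35 (SE, edgeR adjusted p = 0.032), while -0.57 ± 0.33 (SE, edgeR adjusted p = 0.208) in PD was not called. Dsg2 was higher at day 12 in PD, by 1.42 ± 0.33 (SE, edgeR adjusted p = 0.00111), and so was Dsg4, by 5.39 ± 1.21 (SE, edgeR adjusted p = 0.000818). In P the change was 0.5 ± 0.34 (SE, edgeR adjusted p = 0.296) for Dsg2 and 1.42 ± 1.04 (SE, edgeR adjusted p = 0.341) for Dsg4, neither called, and 1.4 ± 0.24 (SE, edgeR adjusted p = 4.91e-05) and 7.28 ± 1.05 (SE, edgeR adjusted p = 6.91e-06) without P day 4 replicate 3. Whether these changes differed between the arms is the test above, in which none passed.

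Several of these calls rest on single libraries. In PD, Dsg1b was lost without PD day 12 replicate 3, 4, 5 or 6, or PD day 4 replicate 1 or 2 (edgeR adjusted p = 0.0563 to 0.205) and Dsg3 without PD day 12 replicate 2, 3 or 4, or PD day 4 replicate 1 (edgeR adjusted p = 0.0519 to 0.139). In P, Pkp1 was lost without P day 12 replicate 3, 4 or 6, or P day 4 replicate 1 or 2 (edgeR adjusted p = 0.0517 to 0.108) and Dsg3 without P day 4 replicate 3 (edgeR adjusted p = 0.0765). Conversely, Dsc1 and Dsc2 passed in P without P day 12 replicate 1 (edgeR adjusted p = 0.0411 and 0.00782), and Dsc3 and Dsp without P day 4 replicate 4 (edgeR adjusted p = 0.029 and 0.0344).

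At day 12 against day 2, 3 members were called in PD (37.3% of all genes, 18.6% higher and 18.7% lower) and 3 in P (41%, 20.4% higher and 20.5% lower), the same 3 genes. Dsg4 was higher by 3.46 ± 1.14 (SE, edgeR adjusted p = 0.017) in PD and 3.28 ± 1.13 (SE, edgeR adjusted p = 0.0205) in P. Dsg2 was higher by 0.89 ± 0.34 (SE, edgeR adjusted p = 0.0399) in PD and 1.17 ± 0.34 (SE, edgeR adjusted p = 0.0068) in P, and Dsg3 was lower, at -1.24 ± 0.32 (SE, edgeR adjusted p = 0.00313) in PD and -0.82 ± 0.32 (SE, edgeR adjusted p = 0.0413) in P. The PD call of Dsg2 was lost without PD day 12 replicate 1, 4 or 6, or PD day 2 replicate 1, 2, 3 or 5 (edgeR adjusted p = 0.0515 to 0.116), and the P call of Dsg3 without P day 12 replicate 1, 3, 4 or 6, or P day 2 replicate 1, 2 or 3 (edgeR adjusted p = 0.0566 to 0.15).

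The balance of cadherins within a library does not depend on scaling. Per kilobase, Dsg1a made up a median of 69.6% of the desmoglein counts in unwounded skin, and Dsg3 24.1%. At day 2 Dsg3 made up 64.1% in PD and 63.6% in P wounds, and Dsg1a 26.9% and 24.2%. At day 4 Dsg3 was 61.1% in PD and 29.4% in P, and Dsg1a 28.5% and 52.6%. Dsg4 reached a median of 16.2% in PD and 11.9% in P at day 12, against 0.13% in unwounded skin. Among desmocollins Dsc3 held 91.8% in unwounded skin, 92.3% in PD and 90.3% in P at day 2, 82.6% in PD and 64.5% in P at day 4, and 89.7% in PD and 85.7% in P at day 12.

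**Figure D4:**
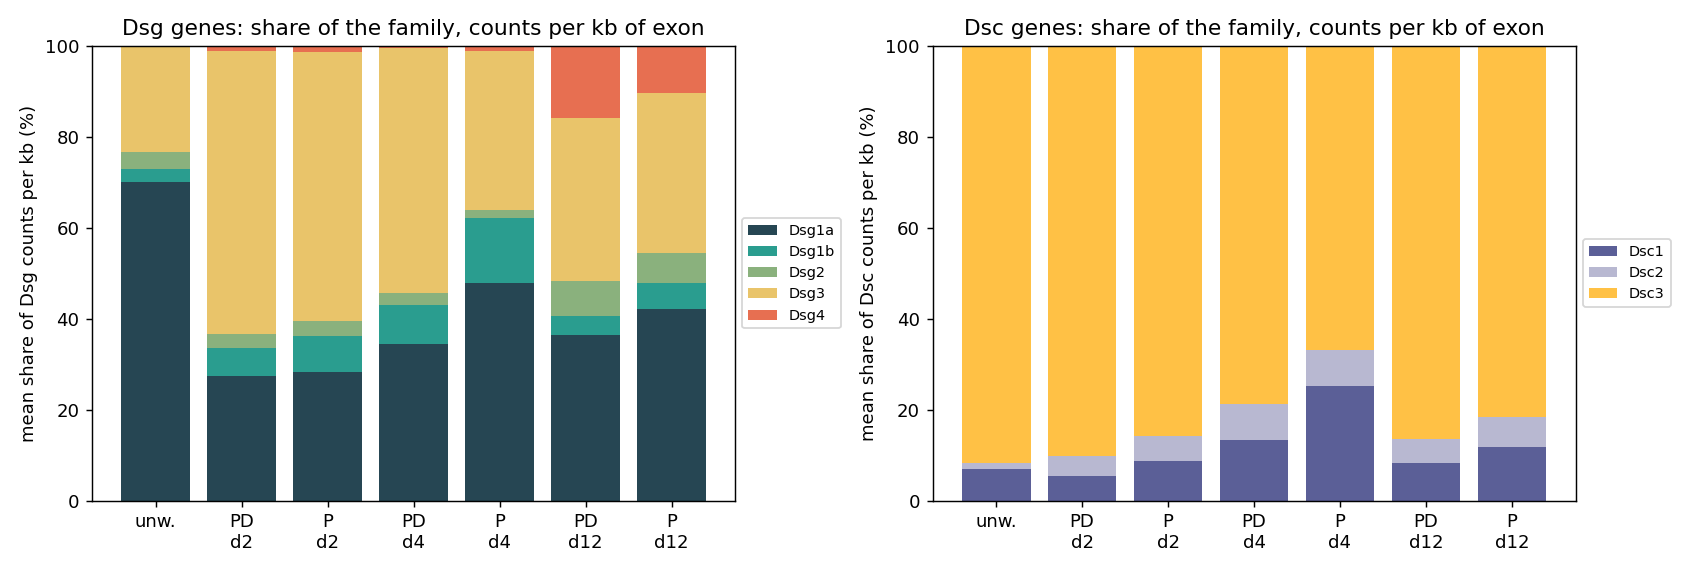
Mean share of each desmoglein in the summed desmoglein counts per kb (left) and of each desmocollin in the desmocollin counts per kb (right), by group (unw., unwounded; d, day). Dsg1a is the largest block in unwounded skin and Dsg3 at day 2, and Dsc3 is the largest desmocollin block throughout.

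Next, 3 ratios of counts within a library (Dsg3 to Dsg1a plus Dsg1b, Dsc3 to Dsc1 and Dsc2 to Dsc1) were compared between groups by two-sided exact permutation tests, with p adjusted over 27 tests. None passed, the lowest adjusted p being 0.138, a value that the number of libraries limits: with 3 unwounded samples the smallest possible p was 0.0357 for groups of 5 and 0.0238 for groups of 6. Dsg3 to Dsg1a plus Dsg1b had a mean log2 ratio of 1.29 ± 0.49 in PD (n = 5) and 1.17 ± 0.94 in P (n = 5) at day 2, against -1.33 ± 0.12 in unwounded skin (SD, n = 3). Both groups lay wholly above unwounded skin (exact permutation p = 0.0357 each). PD day 4 wounds did so too, at 0.74 ± 1.14 (n = 6, exact p = 0.0238), while P day 4 wounds, at -0.47 ± 0.94, overlapped it (n = 5, exact p = 0.143).

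Dsc3 to Dsc1 was lower in P day 4 wounds at 1.58 ± 0.57 (n = 5) than in unwounded skin at 3.84 ± 0.18 (n = 3, exact p = 0.0357), with no overlap. In PD day 4 wounds it was 3.02 ± 1.30 and overlapped (n = 6, exact p = 0.381). Dsc2 to Dsc1 lay wholly above unwounded skin in PD day 2 wounds and in day 12 wounds of both arms, with log2 differences of 2.45, 1.93 (PD) and 1.53 (P). PD and P wounds overlapped in all 3 ratios on each day, the smallest exact p being 0.0519, for Dsc3 to Dsc1 at day 4 (n = 6 and 5).

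**Figure D5:**
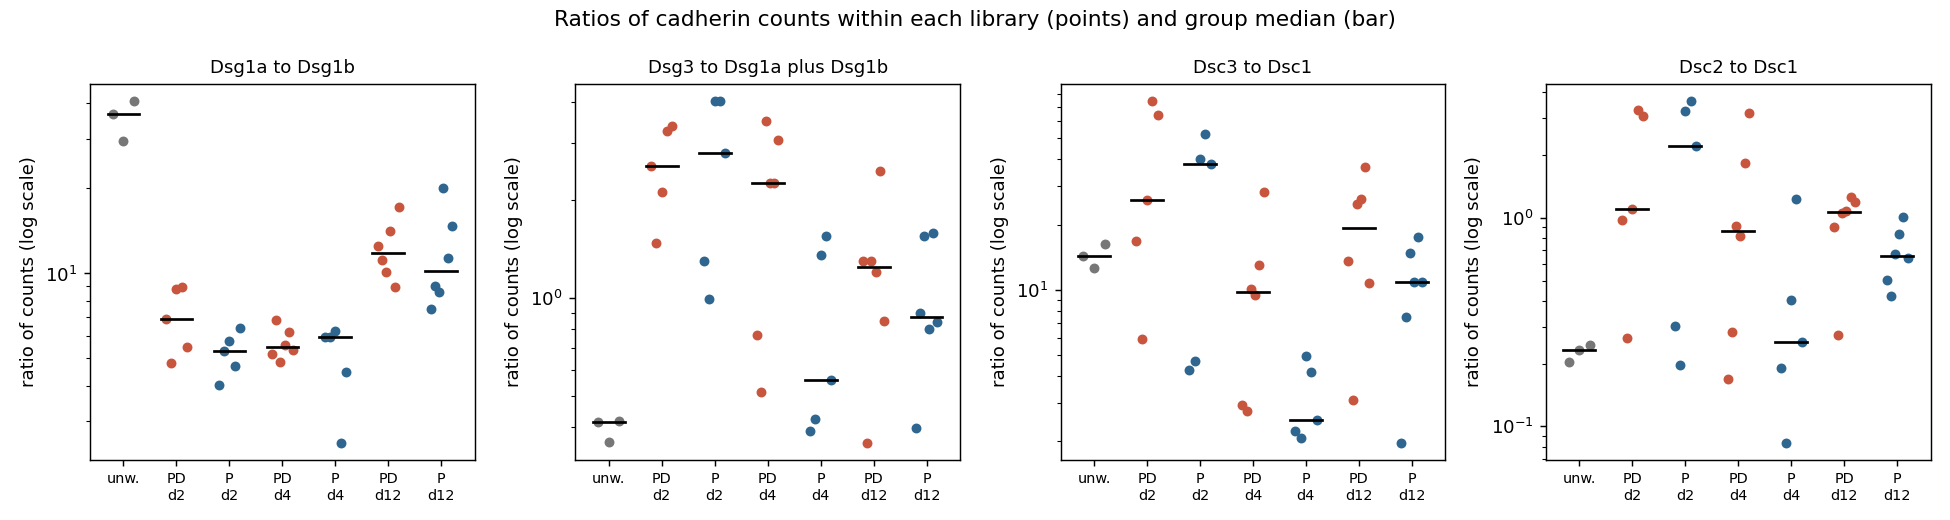
Ratio of counts within each library (points, log axis) and group median (bar) for Dsg1a to Dsg1b, Dsg3 to Dsg1a plus Dsg1b, Dsc3 to Dsc1 and Dsc2 to Dsc1, by group (unw., unwounded; d, day; red PD, blue P). The Dsg1a to Dsg1b ratio of all 33 wounds lies below that of the 3 unwounded samples.

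Other genes of the junction were read from lists, whose counts stand beside the share of all genes called against unwounded skin: at days 2, 4 and 12, 18.4%, 21.8% and 20.7% were lower in PD and 19%, 19.7% and 20% in P. Of 5 further desmosome genes (Dsg1c, Jup, Pkp2, Pkp3 and Perp) 0 were called higher in any wound group against unwounded skin. In PD wounds 1, 1 and 2 were called lower at days 2, 4 and 12, and in P wounds 2, 1 and 1. Perp, a membrane protein that desmosomes of stratified epithelia need, was 739 ± 239 CPM in PD and 926 ± 115 CPM in P at day 12, against 1820.3 ± 315 CPM in unwounded skin (SD). The change was -1.3 ± 0.37 (SE, edgeR adjusted p = 0.00498) in PD and -0.98 ± 0.37 (SE, edgeR adjusted p = 0.0318) in P. Pkp2, the plakophilin of heart and simple epithelia, was lower at day 4 with a log2 change of -0.86 ± 0.34 (SE, edgeR adjusted p = 0.0343) in PD and -1.24 ± 0.35 (SE, edgeR adjusted p = 0.00503) in P. Jup, the plakoglobin gene, was called in none of the 6, with changes of -0.63 (PD day 12) to 0.35 (P day 4).

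Among 6 plakins and partners of the cornified envelope, Ppl (periplakin) was lower and Tgm3 (a transglutaminase of hair and envelope) higher in all 6 wound groups. Ppl changed by -2.1 ± 0.32 (SE, edgeR adjusted p = 5.52e-06) in PD and -2.16 ± 0.32 (SE, edgeR adjusted p = 2.84e-06) in P at day 2, and by -1.53 ± 0.3 (SE, edgeR adjusted p = 0.000173) and -1.36 ± 0.3 (SE, edgeR adjusted p = 0.000636) at day 12. Tgm3 changed by 4.85 ± 1.21 (SE, edgeR adjusted p = 0.00189) in PD and 5.16 ± 1.23 (SE, edgeR adjusted p = 0.0012) in P at day 12. Evpl (envoplakin) was lower in PD at days 2 and 12 and in P at day 2. Tgm1, which crosslinks the envelope, was higher at day 4, by 1.42 ± 0.5 (SE, edgeR adjusted p = 0.0207) in PD and 1.96 ± 0.53 (SE, edgeR adjusted p = 0.00343) in P.

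Of 10 adherens junction genes, 4, 3 and 3 were lower in PD and 5, 2 and 3 in P at days 2, 4 and 12, where 18.4% to 21.8% of all genes were lower in each group. Cdh1 (E-cadherin) was 181 ± 26 CPM in PD and 161 ± 50.8 CPM in P at day 2, against 388 ± 66.8 CPM in unwounded skin, a change of -1.11 ± 0.31 (SE, edgeR adjusted p = 0.00466) and -1.27 ± 0.31 (SE, edgeR adjusted p = 0.00122). Cdh3 (P-cadherin, of basal and hair matrix cells) was the 1 gene called higher, at day 12, by 1.27 ± 0.42 (SE, edgeR adjusted p = 0.0149) in PD and 1.4 ± 0.42 (SE, edgeR adjusted p = 0.00807) in P. Of 8 tight junction genes, 0 were higher in any group, where 21% to 25.4% of all genes were higher, and 5, 6 and 5 were lower in PD and 5, 3 and 3 in P, where 18.4% to 21.8% of all genes were lower. Cgn (cingulin) was 10.1 ± 1.19 CPM in PD and 7.97 ± 3.59 CPM in P at day 2, against 84.2 ± 12.3 CPM in unwounded skin, and changed by -3.05 ± 0.36 (SE, edgeR adjusted p = 1.32e-07) and -3.4 ± 0.37 (SE, edgeR adjusted p = 1.87e-08).

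Gap junction genes moved in both directions. Of 6, Gjb2 and Gjb6, the connexins 26 and 30, were higher in all 6 groups, and Gjb5 was lower in all 6. Gjb2 was 252 ± 308 CPM in PD and 559 ± 226 CPM in P at day 4, against 2.94 ± 0.319 CPM in unwounded skin, a change of 6.42 ± 1.25 (SE, edgeR adjusted p = 0.000105) and 7.57 ± 1.32 (SE, edgeR adjusted p = 3.59e-05). Gjb5 changed by -2.22 ± 0.33 (SE, edgeR adjusted p = 3.05e-06) in PD and -2.38 ± 0.33 (SE, edgeR adjusted p = 9.11e-07) in P at day 2.

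Of 9 genes that regulate desmosomes, 4 were lower in PD and 3 in P on each day, and Adam17, a sheddase, was the 1 called higher, in P at day 2. Trp63, the p63 transcription factor of stratified epithelia and also 1 of the 8 interfollicular markers, was lower in all 6 groups, with a log2 change of -1.11 ± 0.26 (SE, edgeR adjusted p = 0.000933) in PD and -1.24 ± 0.26 (SE, edgeR adjusted p = 0.00025) in P at day 2, and -1.15 ± 0.25 (SE, edgeR adjusted p = 0.000405) and -1.05 ± 0.25 (SE, edgeR adjusted p = 0.00101) at day 12. Grhl1, a factor known to act on desmosomal cadherin genes, was lower at day 2, with a log2 change of -1.22 ± 0.34 (SE, edgeR adjusted p = 0.00439) in PD and -1.29 ± 0.34 (SE, edgeR adjusted p = 0.0026) in P. Of 7 genes for proteases that shed corneodesmosomes, or for their inhibitor or substrate, 4 were lower and 1 higher in either arm at day 2. Klk5, a kallikrein, changed by -2.7 ± 0.95 (SE, edgeR adjusted p = 0.0241) in PD and -2.64 ± 0.95 (SE, edgeR adjusted p = 0.0259) in P. Spink5, its inhibitor, changed by -2.55 ± 0.65 (SE, edgeR adjusted p = 0.00235) and -2.3 ± 0.65 (SE, edgeR adjusted p = 0.00481), and by -2.9 ± 0.62 (SE, edgeR adjusted p = 0.000381) in PD and -2.25 ± 0.61 (SE, edgeR adjusted p = 0.00375) in P at day 12. Ctsl, the lysosomal protease cathepsin L, was higher at day 2, by 1.56 ± 0.36 (SE, edgeR adjusted p = 0.000904) in PD and 1.89 ± 0.37 (SE, edgeR adjusted p = 0.000109) in P, and at day 4, by 1.72 ± 0.36 (SE, edgeR adjusted p = 0.000214) in PD and 2.1 ± 0.37 (SE, edgeR adjusted p = 3.68e-05) in P.

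Among members, Dsc3 and Dsp ran most alike over the 36 libraries, with a root mean square difference of 0.25 between their centred log2 CPM. Dsc3 and Pkp1 (0.37) and Pkp1 and Dsp (0.38) followed. These pairs share libraries and depth, and the values are a description. By the same measure, the 2 tested genes outside the members most like each one were Perp (0.23) and Nipal4 (0.26) for Pkp1, Serpinb5 (0.31) and Tlcd3a (0.34) for Dsp, and Tiam1 (0.32) and Serpinb5 (0.33) for Dsc3. They were Celsr1 (0.29) and Tenm2 (0.30) for Dsg2, Arhgef16 (0.34) and Itga6 (0.37) for Dsg3, and Rps6ka6 (0.41) and Pof1b (0.42) for Dsg1a. For Dsg1b they were Gm6551 (0.54) and Rgs20 (0.55), for Dsc2 Kcnk6 and Prdm1 (0.56 each), and for Dsc1 Lypd5 (0.68) and Gm11992 (0.75). Dsg4 had no close match, the nearest being Dlx1 (1.36) and Actbl2 (1.37), beside a root mean square spread of 2.65 around its own mean.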

How the data were processed

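RNA was measured in 36 mouse skin libraries. The authors deposited whole-number read counts per gene and library, without normalization. Per the submitters' processing notes, the tools were Trimmomatic, HISAT2 (2.1.0), SAMtools (1.9) and HTSeq, on the GRCm39 build. The strand setting and annotation release are not given in the sources used here. Of the 55414 identifiers 98.8% were found in a GENCODE annotation of GRCm39, which gave coordinates and exon lengths.

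Genes were kept by filterByExpr (minimum count 10, minimum total 15). TMM gave library scaling, and the robust quasi-likelihood test of edgeR (4.0.16, under R 4.3.3) was fitted once to the 36 libraries with 7 group means. It gave 18 contrasts, each with Benjamini-Hochberg adjustment over 20657 genes. The code was tested on simulated data. Log2 CPM for likeness used a prior count of 2. Ratios used log2 of counts plus 0.5. The 10 members appear in every comparison; of each other junction list up to 4 genes per comparison were named, those called with the largest absolute log2 change, and the 2 tested genes most like each member with a mean of at least 1 CPM. Members and lists were chosen with earlier results of these data known. Alternatives were DESeq2 size factors, no composition factor, DESeq2 1.42.0, limma-voom (limma 3.58.1) with sample weights, a stricter filter or none, only the libraries compared, the replicate number as a block, 2 surrogate variables (sva 3.50.0) and each library left out. The limits given for 0 counts cover counting error only. Each edgeR SE was taken as the absolute log2 change over the square root of its F statistic, which includes the spread between libraries. SD values are between libraries.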

Additional observations from a re-analysis of the deposited data

Results flagged for a closer look

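In 10 of 60 sets of 4 to 10 levels (each member in each wound group), 1 library lay far from the rest of its group. The cutoff is one that separate sets of normally distributed values pass in about 5% of cases. These levels were unlogged CPM and the sets share libraries, so 10 of 60 cannot be set against that rate. P day 4 replicate 3 held 28.5 CPM of Dsg4 and 51.3 CPM of Dsg2, and its hair follicle markers stood at 9356 CPM. P day 12 replicate 1 held 24.3 CPM of Dsg1b, 89.5 CPM of Dsc1 and 44.9 CPM of Dsc2, with the highest wound keratinocyte markers of its group, at 5497 CPM. PD day 12 replicate 2 held 13.5 CPM of Dsg1b and 55.3 CPM of Dsc1, also with the highest such markers of its group, at 3179 CPM. PD day 2 replicate 2 held 24.9 CPM of Dsg1b and 45.7 CPM of Dsc1, with the highest wound keratinocyte markers of its group, at 11284 CPM. PD day 4 replicate 1 held 306 CPM of Dsg3, with the highest wound keratinocyte markers of its group, at 26642 CPM. Each of these was the highest value of its group.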

How the results depend on the processing

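Of 3889 recomputed log2 changes of members, 3669 kept their direction and side of the threshold or were uncalled in both fits, 138 were newly called, 80 lost their call and 2 were reversed. Among the 3669 were 165 changes of sign between values that were both uncalled, 91 of them with a library left out. The 2 reversals were of Dsg4 at P day 4 against day 2, at -3.43 (adjusted p = 0.0429) by limma-voom and -4.00 (edgeR adjusted p = 0.0142) without P day 4 replicate 3. Over all single libraries left out its change ran from -4.00 to 2.44. All 315 recomputed ratios were classed as unchanged, some of them with a change of sign. None had passed in the main tests, where the number of libraries limited the smallest possible p. Leaving out a library raises that limit, and against unwounded skin many reruns had little or no room to pass. The count of 315 therefore cannot show whether the ratios are stable.

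Counts of members called depended most on the model. The share of all genes called is not given for most of the alternative fits below, so these counts cannot be set against it. By limma-voom with sample weights they were 6 (P day 2), 4 (P day 4), 8 (P day 12), 6 (PD day 2) and 6 (PD day 4) against unwounded skin, 7 for PD against P at day 4, 8 for P day 4 against day 2, 10 for P day 12 against day 4, and 6 for the change in the PD minus P difference, day 4 minus day 2. With 2 surrogate variables they were 5, 6 and 6 in P at days 2, 4 and 12 and 5 and 6 in PD at days 2 and 4 against unwounded skin, 6 for P day 4 against day 2, 8 for P day 12 against day 4, 3 for PD day 4 against day 2 and 10 for PD day 12 against day 4. The surrogate variables can follow the groups compared, so the counts from that fit are no independent check. By DESeq2 the counts were 4 at P day 4 against unwounded skin and 2 for P day 4 against day 2. For P day 4 against day 2, DESeq2 size factors, the stricter filter and only the libraries compared each gave 1. Only the libraries compared gave 6 at P day 12, 5 at PD day 2 and 1 at PD day 4 against unwounded skin, and 2 for PD day 12 against day 4, where no filter also gave 2; it gave no value for Dsg4 in PD against P at day 4. The cause was not tested.

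With the replicate number as a block, 4 members were called at P day 4 against unwounded skin, 5 for P day 4 against day 2 and 6 for P day 12 against day 4. No label ties the numbers to a shared animal or day, so the main fit did not pair the samples by them. Not every same-numbered pair correlated above 0.1, a bar that samples with a real tie could also miss. The deviations of 96 same-numbered pairs correlated at -0.253 to 0.535 (median 0.109, 51 above 0.1), against a median of -0.030 over 456 pairs with different numbers (116 above 0.1), and 10 of 36 libraries correlated best with their own number. Same-numbered pairs thus had the higher median. Replicates 1 and 2 stood together in several groups. The first surrogate variable was -0.278 to -0.0555 in them over the 6 wound groups, and -0.125 to 0.354 in the other wounds, so the ranges overlapped. Dsc1 at P day 2 and Dsp at PD day 4 were highest in replicates 1 and 2. Macrophage markers summed to 1732 and 1707 CPM in them at P day 12, against 142 to 273 CPM in the others, with no such split at P day 2. Whether libraries of the same number share an unlabelled factor was not tested, and the block calls stand beside the main ones. With 1 library left out, counts ran 1 to 3 for P day 4 against unwounded skin, 0 to 2 for P day 4 against day 2, 2 to 5 for P day 12 against day 4 and 2 to 4 for PD day 12 against day 4. Without a composition factor the median of all genes moved to 0.33 at PD day 12 and 0.37 at P day 12, against 0.09 and 0.10 with it. Counts are few for Dsg4 before day 12, with 0 in 3 libraries, which limits its day 4 values.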
